A study of Bos taurus with 32 samples.

Results

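The mitochondrial genome transcripts described here are the annotated genes that the 4 deposited stage tables place on chromosome MT, taken by that rule alone and whatever their values. They number 25 of the 19834 genes in those tables, and comprise 13 protein-coding genes, 2 ribosomal RNA (rRNA) genes and 10 transfer RNA (tRNA) genes. All 13 coding genes and both rRNA genes were listed at every stage. Only 2 of the 10 tRNA genes were listed at every stage, and 5, 9, 8 and 2 were listed at 4-6 cells, 9-16 cells, morula and blastocyst. The RefSeq table of cattle genes names 22 mitochondrial tRNA genes, and the 12 with no row are not analysed here. The rRNA and tRNA genes carry no symbol in the tables, so they are named below by length or position.

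Bovine embryos were produced in vitro and RNA was sequenced from pools of 15 embryos, after cDNA synthesis from poly(A) tails with Takara's SMART-Seq v4 chemistry for small inputs. Embryos of the treated arm received FGF2, LIF and IGF1, 3 growth factors and cytokines abbreviated FLI, and the other arm served as the untreated control. Each arm was collected as 4-6 cell embryos, 9-16 cell embryos, morulae and blastocysts, with 4 pools in each of the 8 groups and 32 libraries in all. All groups share the in vitro culture; the labels give no breed, sex or dose, and do not say whether the pools of a group came from separate fertilisation runs, so p-values below measure the spread between these pools only.

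Mitochondrial DNA is a small circle that is inherited through the oocyte. It is transcribed from both strands as long precursors, which are cut mostly at the tRNAs into shorter RNAs. The coding genes give core subunits of the respiratory chain: ND1 to ND6 and ND4L belong to complex I, CYTB to complex III, COX1 to COX3 to complex IV, and ATP6 and ATP8 to the ATP synthase. The rRNAs form the mitochondrial ribosome that translates these messages. All other proteins that copy, transcribe, process and translate the mitochondrial genome are encoded in the nucleus, and in cattle the embryo relies on the oocyte's store of mitochondria until after its own genome is activated.

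Libraries held between 7013325 and 169438740 reads, apart from morula control replicate 4 with 83409 reads and blastocyst control replicate 6 with 2995 reads, which were too shallow and were left out of what follows. In units of 1e6 reads, mean depth was 34.3, 23.2, 63.1 and 121 at the 4 stages in turn, and the ranges of neighbouring stages overlapped. The stage labels were checked against marker genes. The summed deposited value of 8 oocyte and early embryo markers lay between 7701 and 10279 at 4-6 cells. It lay between 4802 and 6124 at 9-16 cells, between 26.0 and 100.3 at the morula and between 27.2 and 97.8 at the blastocyst. Morula and blastocyst markers (8, 10, 11 and 11 listed) summed to 322 to 797, 697 to 1333, 1971 to 4356 and 29384 to 57425 at the 4 stages in turn. The 2 listed of 8 genome activation markers summed to 0.251 to 1.93, 193 to 935, 59.4 to 197 and 10.3 to 36.1. Cumulus cell markers, which would reveal carried-over maternal cells, summed to between 362 and 501 at 4-6 cells, between 11.6 and 26.0 at the morula and between 104 and 319.9 at the blastocyst. Their part in the results below was not tested.

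Several libraries stood apart from others of their stage. At 4-6 cells, FLI replicate 6 and control replicate 6 held 89185192 and 82943917 reads, against 12443785 to 22635056 reads in the other 6. The annotated microRNA gene bta-mir-2887 took 0.0109% and 0.0290% of their reads, against 1.49% to 2.21% in the others. At 9-16 cells it took 0.115% of the reads of control replicate 11, against 3.99% to 7.17%. At the morula it took 0.00225% in FLI replicate 7, 0.0378% in control replicate 1 and 0.294% in control replicate 3, against 1.87% to 5.98% in the other 4. These libraries also had a higher median of log2(value + 1) for nuclear genes under 1000 bases relative to genes over 4000 bases. That difference was -0.49 and -0.27 in the pair at 4-6 cells against -2.59 to -2.22 in the rest of the stage, and -0.71 in the one at 9-16 cells against -2.13 to -1.84. The stage steps, the make-up of the coding reads and the morula comparison are therefore also given without all 6 of these libraries, an alternative chosen after seeing the data. It leaves 1 control morula, whose spread is then assumed to be that of the other groups. It leaves out no blastocyst, although bta-mir-2887 took only 0.000249% to 1.11% of reads in blastocysts.

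The 13 coding genes together took a small share of each library, and that share was higher at the later stages. It was 0.589% ± 0.197 (SD, n = 8) at 4-6 cells, 0.965% ± 0.286 (n = 8) at 9-16 cells, 2.71% ± 0.986 (n = 7) at the morula and 2.26% ± 2.02 (n = 7) at the blastocyst. The share at the morula lay above every library of 4-6 cells, and the blastocyst libraries ranged from 0.536% to 5.80%. The 2 rRNA genes took 0.198% ± 0.112, 0.437% ± 0.359, 1.27% ± 0.638 and 0.740% ± 0.736 at the same stages. The tRNA genes took at most 0.0298% of the reads of any library. A share of reads is relative to the rest of the RNA of the pool, so more mitochondrial RNA per embryo and less other RNA cannot be told apart, and neither can fewer cells and less RNA per cell.

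**Figure D1:**
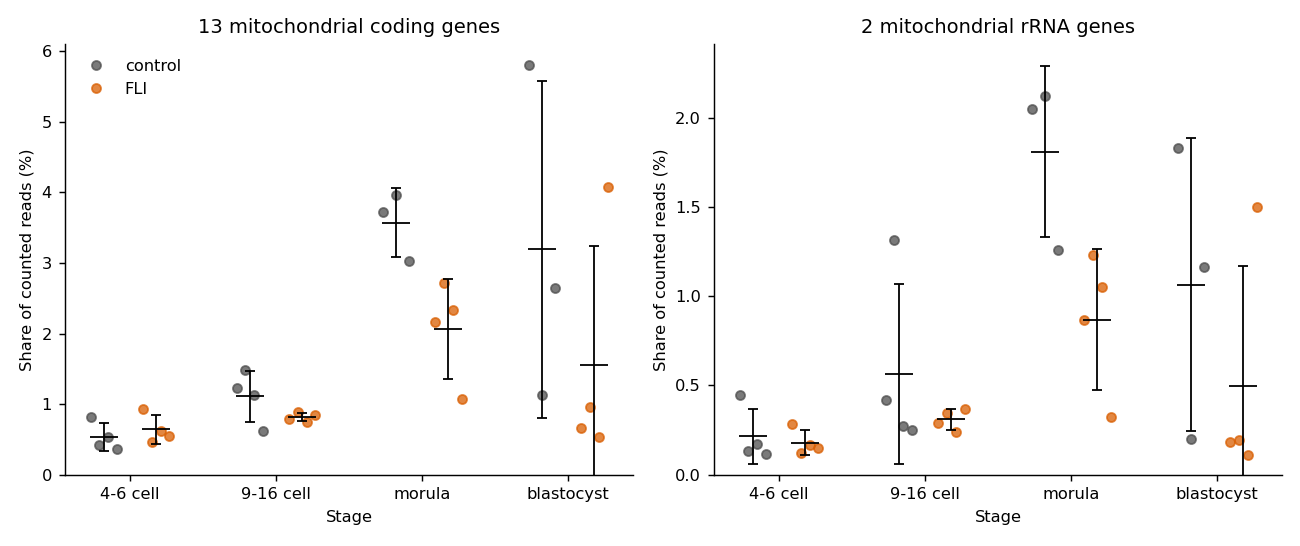
Share of counted reads (percent) in the 13 mitochondrial coding genes (left) and the 2 mitochondrial rRNA genes (right) by stage; each point is a library of 15 pooled embryos, black dashes are group means and bars their SD (n = 4, or 3 for morula and blastocyst controls). The coding share of the 3 morula controls, 3.03% to 3.96%, lies above that of the 4 FLI morulae, 1.07% to 2.72%, and blastocyst libraries spread widely.

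The genes differed in level along the genome once scaled to length. Per kilobase of gene, COX3 (MT 8970 to 9750) had the highest mean deposited value at 4-6 cells, the morula and the blastocyst, with 2005 ± 1813 (SD, n = 8), 12936 ± 11428 (n = 7) and 13828 ± 14559 (n = 7). At 9-16 cells the shorter rRNA gene (MT 431 to 1385, 955 bases) was first with 2966 ± 3655 per kilobase and COX3 followed with 2175 ± 1568, a gap well inside their spread. ATP6 (MT 8290 to 8970) was among the 4 highest at each stage. ND5 (MT 12109 to 13929), the longest coding gene, was the lowest coding gene per kilobase at 4-6 cells and the morula, with 177 ± 35.3 and 825 ± 319. All coordinates are those of the deposited tables, whose build is ARS-UCD1.2 per the submitters' processing notes.

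Several genes share bases. ATP8 (MT 8129 to 8329) and ATP6 overlap by 40 bases, ND4L (MT 10239 to 10535) and ND4 (MT 10529 to 11906) by 7, and ATP6 and COX3 by 1. ATP8 and ATP6, and likewise ND4L and ND4, have no tRNA between them, so the genes of a pair may lie on the same RNA. Differences within such a pair may then be differences in read coverage along that RNA, which was not tested. ND5 overlaps ND6 (MT 13913 to 14440), the only coding gene on the minus strand, by 17 bases. The strand setting of the counting is not given in the sources used here, so reads of ND6 and reads of the opposite strand at that place cannot be told apart.

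The first question over development is whether the level of each transcript changed between neighbouring stages. Levels were compared in CPM, reads scaled jointly over all libraries to a common library size, with limma on log2(CPM + 1) over 13388 genes; a gene was called when its Benjamini-Hochberg adjusted p was under 0.05. From 9-16 cells to the morula, 11 of 13 coding genes rose in control embryos and 10 of 13 rose in FLI embryos, and the other genes also had positive log2 fold changes. Of all genes tested, 39% rose and 34.6% fell over that step in controls, 73.6% in all. In FLI embryos 40.6% rose and 32.6% fell, 73.3% in all. The median log2 fold change of the 13 genes was 2.14 in controls and 1.68 in FLI embryos, against 0.13 and 0.23 over all genes tested.

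Among the ATP synthase genes, ATP8 rose the most in both arms. ATP8 measured 19.4, 23.8, 49.1 and 177 CPM in control embryos at 9-16 cells and 279.9, 833 and 901 CPM in control morulae. In FLI embryos it measured 16.6, 19.5, 25.3 and 36.2 CPM at 9-16 cells and 79.5, 107, 116 and 202 CPM in morulae. Morulae lay above 9-16 cell embryos in both arms without overlap, and the log2 fold change was 3.69 ± 0.89 (SE; limma adjusted p = 0.000588) in controls and 2.30 ± 0.82 (limma adjusted p = 0.0143) in FLI embryos. ATP6, the proton channel subunit, rose by a log2 fold change of 2.77 ± 0.68 (limma adjusted p = 0.000739) in controls and 1.72 ± 0.63 (limma adjusted p = 0.0168) in FLI embryos.

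Complex IV genes rose unequally. COX3 measured 615, 1238, 1845 and 3668 CPM in controls at 9-16 cells and 10088, 24028 and 26204 CPM in control morulae. In FLI embryos COX3 went from between 913 and 1133 CPM to between 3803 and 6071 CPM. The groups did not overlap in either arm, with log2 fold changes of 3.62 ± 0.77 (limma adjusted p = 0.000157) and 2.24 ± 0.71 (limma adjusted p = 0.00651). COX2, which takes up electrons from cytochrome c, measured 224, 397, 483 and 959 CPM in controls at 9-16 cells and 2771, 4975 and 6646 CPM in control morulae. Its log2 fold change was 3.32 ± 0.68 (limma adjusted p = 0.000101) in controls and 2.22 ± 0.63 (limma adjusted p = 0.00272) in FLI embryos. COX1, the catalytic subunit, did not pass in either arm, with 0.98 ± 0.49 (limma adjusted p = 0.0752) and 0.99 ± 0.46 (limma adjusted p = 0.0553).

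Complex I and III genes spanned a wide range of change. ND3 (MT 9823 to 10168) measured 33.5, 78.6, 79.9 and 462 CPM in controls at 9-16 cells and 475, 1544 and 1642 CPM in control morulae. The high value among the 9-16 cell controls was that of replicate 11, a library that stood apart, and the log2 fold change was 3.40 ± 1.02 (limma adjusted p = 0.00436). In FLI embryos ND3 lay between 37.8 and 59.1 CPM at 9-16 cells and between 145 and 250.1 CPM at the morula, and missed the threshold (log2 fold change 1.92 ± 0.95, limma adjusted p = 0.0700). ND2, ND4, ND5, ND6 and CYTB rose in both arms, by log2 fold changes between 1.51 and 2.61. ND1 rose in controls (1.23 ± 0.55, limma adjusted p = 0.0474) and did not pass in FLI embryos (0.65 ± 0.51, limma adjusted p = 0.253). ND4L rose in FLI embryos (1.47 ± 0.65, limma adjusted p = 0.0455) and not in controls (1.45 ± 0.71, limma adjusted p = 0.0664). The test of whether treatment effects differ between stages, given further on, called none of these genes.

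The 2 rRNA genes followed the coding genes. The longer rRNA gene (MT 1453 to 3023, 1571 bases) measured between 960 and 3471 CPM in controls at 9-16 cells and between 7464 and 15128 CPM in control morulae, with a log2 fold change of 2.94 ± 0.67 (limma adjusted p = 0.00033). In FLI embryos the longer rRNA gene rose by 1.91 ± 0.62 (limma adjusted p = 0.00753). The shorter rRNA gene rose in controls (2.70 ± 0.92, limma adjusted p = 0.0104) and missed the threshold in FLI embryos (1.56 ± 0.85, limma adjusted p = 0.0986). Without the 6 libraries that stood apart, the shorter rRNA gene had log2 fold changes of 2.22 in controls and 1.69 in FLI embryos. The longer then had 2.56 and 2.11. Only 1 control morula is left in that fit.

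Scaling bears on the size of this rise. Scaled to nuclear reads instead, the median over all genes moved to -0.50 in controls and -0.08 in FLI embryos, 8 and 9 of the 13 coding genes rose, and all 13 log2 fold changes stayed positive in both arms. With the 2 shallow libraries added, 8 of 13 rose in controls and none passed in FLI embryos. Without the 6 libraries that stood apart, 7 of 13 rose in controls, where 34.6% of all genes did, and 10 of 13 in FLI embryos, where 39.2% of all genes did, and all 13 log2 fold changes stayed positive in both arms. ATP8, COX2 and COX3 were among the 7, and ND3 (limma adjusted p = 0.0642) and ATP6 (limma adjusted p = 0.0716) were not.

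**Figure D2:**
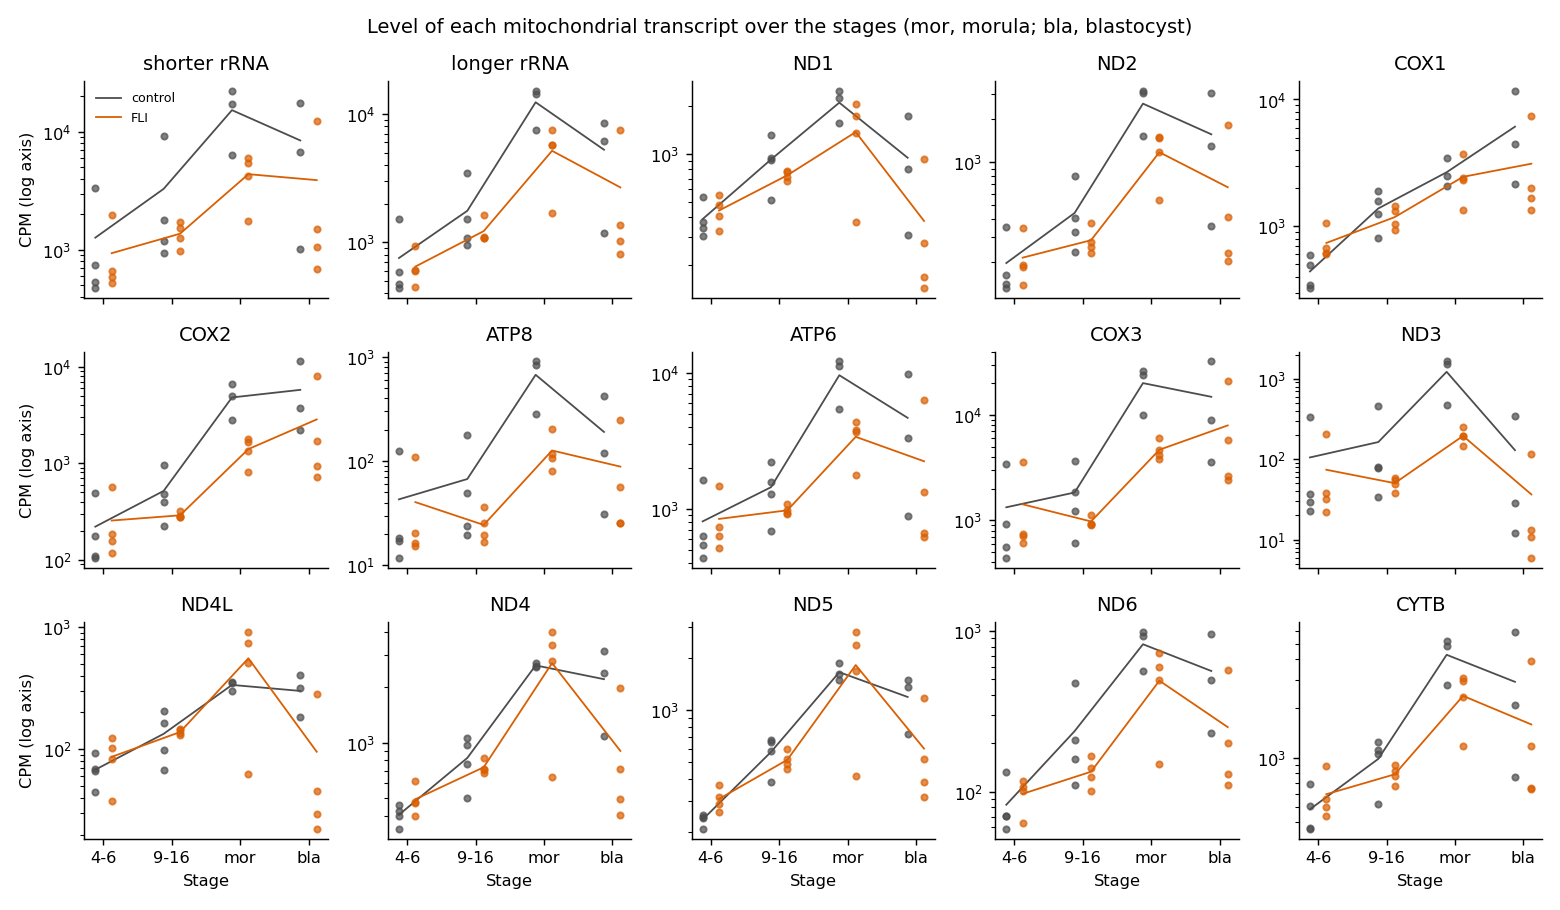
Jointly scaled level (CPM, log axis) of the 2 rRNA and 13 coding genes by stage; points are libraries, lines join group means, grey is control and orange FLI (n = 4, or 3 for morula and blastocyst controls). From 9-16 cells to the morula all 13 coding means go up in both arms, and from morula to blastocyst the means of COX1 and COX2 go up in both arms, that of COX3 goes up in FLI embryos, and all other coding means go down.

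The step before, from 4-6 to 9-16 cells, was smaller. In controls 3 of 13 coding genes rose, COX1, ND5 and ND6, where 13.7% of all genes tested rose and 12.3% fell, 26% in all. COX1 measured 327, 342, 498 and 593 CPM at 4-6 cells and 809, 1239, 1589 and 1890 CPM at 9-16 cells, so the groups did not overlap, and its log2 fold change was 1.63 ± 0.46 (limma adjusted p = 0.00893). ND5 measured between 207 and 248 CPM and then between 386 and 671 CPM, again without overlap (1.26 ± 0.41, limma adjusted p = 0.0239). ND6 overlapped, with 58.8 to 132 CPM and then 109.8 to 473 CPM (1.36 ± 0.51, limma adjusted p = 0.0486). COX2 and ND1, the other genes with the largest values, did not pass, at 1.35 ± 0.63 (limma adjusted p = 0.122) and 1.198 ± 0.51 (limma adjusted p = 0.0886).

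In FLI embryos none of the 13 coding genes was called over that step, where 15.2% of all genes tested rose and 16% fell, 31.2% in all, and no coding gene had an unadjusted p under 0.05. edgeR also called none in FLI embryos. The 5 genes with the largest log2 fold changes were ND4L (0.79 ± 0.65), ND1 (0.76 ± 0.51), ND5 (0.75 ± 0.41), COX1 (0.70 ± 0.46) and ND4 (0.59 ± 0.45), and the smallest limma adjusted p among the 13 was 0.173. COX1 stood at 605, 613, 675 and 1061 CPM in FLI embryos of 4-6 cells and at 927, 1049, 1311 and 1434 CPM at 9-16 cells. The control count rests on few libraries: it was 1 of 13 without 4-6 cell control replicate 9, 9-16 cell control replicate 10 or 9-16 cell control replicate 12, 1 of 13 without the 3 libraries that stood apart at these stages, and 0 with the 2 shallow libraries added to the fit. Without all 6 libraries that stood apart it was 2 of 13, COX1 and ND5, where 15.9% of all genes rose.

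From morula to blastocyst the genes that passed were all genes of complex I. In FLI embryos 5 of 13 coding genes fell, namely ND1, ND3, ND4, ND4L and ND5, where 22% of all genes tested fell and 18.8% rose, 40.7% in all. In controls 1 of 13 fell, ND3, where 15.2% of all genes tested fell and 17.6% rose, 32.8% in all. The complex I genes ND2 and ND6 passed in neither arm. edgeR called ND1, ND4, ND4L and ND5 in FLI embryos and no coding gene in controls. ND3 measured 475, 1544 and 1642 CPM in control morulae and 12.2, 29.0 and 348 CPM in control blastocysts. In FLI embryos ND3 measured 145, 192, 192 and 250.1 CPM in morulae and 5.86, 10.9, 13.1 and 116 CPM in blastocysts. Neither arm overlapped between the stages, with log2 fold changes of -4.36 ± 1.10 (limma adjusted p = 0.00292) in controls and -3.33 ± 0.95 (limma adjusted p = 0.00641) in FLI embryos.

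The other falls in FLI embryos were ND4L by a log2 fold change of -2.80 ± 0.65 (limma adjusted p = 0.0012), ND1 by -2.03 ± 0.51 (limma adjusted p = 0.00246), ND4 by -1.60 ± 0.45 (limma adjusted p = 0.00565) and ND5 by -1.49 ± 0.41 (limma adjusted p = 0.00506). ND4L measured 62.7, 508, 737 and 909 CPM in FLI morulae and 22.2, 29.5, 45.1 and 284 CPM in FLI blastocysts, and the groups overlapped through morula replicate 7 and blastocyst replicate 8. Those are the FLI morula with little bta-mir-2887 and the FLI blastocyst with the highest mitochondrial share. In controls ND4L lay between 302 and 357 CPM in morulae and between 183 and 401 CPM in blastocysts (-0.23 ± 0.75, limma adjusted p = 0.845).

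No complex IV gene was called over the last step. COX1 had log2 fold changes of 0.89 ± 0.53 in controls (limma adjusted p = 0.205) and 0.06 ± 0.46 in FLI embryos (limma adjusted p = 0.933). COX2 had 0.01 ± 0.73 and 0.39 ± 0.63. The remaining largest values in controls, ATP8 (-2.34 ± 0.95, limma adjusted p = 0.0595), ATP6 (-1.56 ± 0.73, limma adjusted p = 0.101), ND1 (-1.45 ± 0.59, limma adjusted p = 0.0617) and ND2 (-1.11 ± 0.67, limma adjusted p = 0.212), missed the threshold. Blastocyst control replicate 5 and FLI replicate 8 were much higher than the rest of their groups: without control replicate 5, 6 of 13 genes fell in controls, and without FLI replicate 8, 9 of 13 fell in FLI embryos. Scaled to nuclear reads, 9 of 13 fell in FLI embryos, with the median over all genes at -0.31. Leaving out the 6 libraries that stood apart keeps FLI morulae with 2.69% to 5.98% bta-mir-2887 beside FLI blastocysts with 0.000249% to 0.387%. Without the 6 libraries that stood apart, all of them earlier than the blastocyst, 7 of 13 fell in FLI embryos, the 7 genes of complex I, where 27.9% of all genes fell. In controls none then passed, where 10.2% of all genes fell, and ND3 had -3.17 (limma adjusted p = 0.0954).

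The make-up of the mitochondrial messages themselves is free of library scaling. Each gene is given as a share of the reads of the 13 coding genes in the same library. These shares add up to the whole, so a gain by some genes lowers the share of others. A lost share therefore need not be a fall in level. Over the 3 steps and 13 genes, 39 exact permutation tests over libraries of both arms called 0 genes from 4-6 to 9-16 cells, 4 from 9-16 cells to the morula and 6 from morula to blastocyst. ND1 lost share at both later steps, although its level had positive log2 fold changes from 9-16 cells to the morula (1.23 in controls and 0.65 in FLI embryos). ND1 made up 10.3% ± 0.948 of the coding reads at 9-16 cells (9.19% to 12.2%, median 10.2%, n = 8), 4.94% ± 1.51 at the morula (3.28% to 6.96%, median 4.69%, n = 7) and 2.16% ± 0.342 at the blastocyst (1.72% to 2.72%, median 2.10%, n = 7). No 2 of these stages overlapped, and the exact permutation adjusted p was 0.00379 at both steps.

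COX1 and COX2, which lie one after the other along the genome, took different courses. COX1 made up 16.2% ± 3.27 at 9-16 cells, 8.69% ± 3.66 at the morula and 16.4% ± 3.18 at the blastocyst, and both changes were called (exact permutation adjusted p = 0.00539 and 0.00379). The morula libraries ranged from 3.44% to 12.5% and the blastocyst libraries from 13.8% to 22.8%, without overlap. COX2 went from 4.69% ± 0.878 to 7.38% ± 1.57 and then 13.3% ± 2.42, rising at both steps (exact permutation adjusted p = 0.00539 at each). COX3 rose from 16.0% ± 4.35 to 28.5% ± 9.90 at the morula (exact permutation adjusted p = 0.0303), and its 35.0% ± 4.72 at the blastocyst was not called (exact permutation adjusted p = 0.251).

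ND3, ND2 and ATP6 lost share at the last step. ND3 made up 1.48% ± 0.818 at the morula (0.586% to 2.71%, median 1.42%) and 0.164% ± 0.123 at the blastocyst (0.0797% to 0.421%, median 0.0986%). ATP6 went from 16.2% ± 1.65 to 9.82% ± 1.85 and ND2 from 4.95% ± 0.434 to 3.29% ± 0.580. None of these 3 overlapped between the stages (exact permutation adjusted p = 0.00379 each, from the smallest p the arrangements allow, 0.000583). ND4, ND4L, ND5, ND6, CYTB and ATP8 were not called at any step when all 30 libraries entered.

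**Figure D3:**
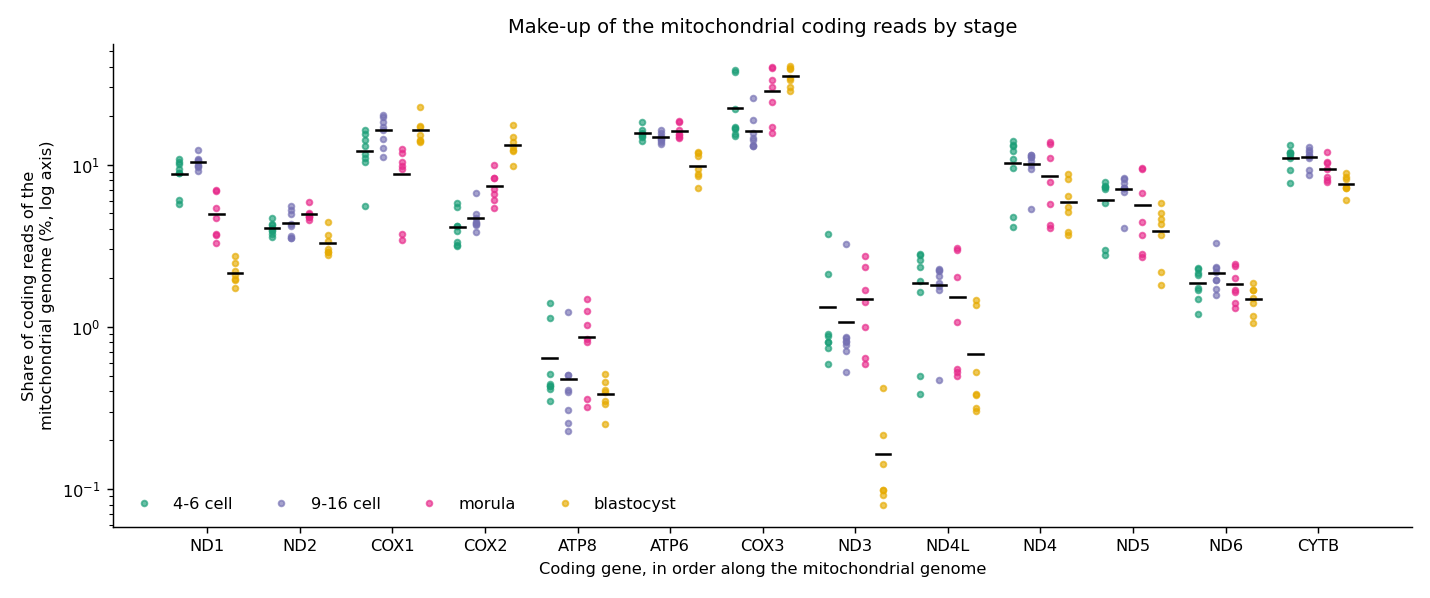
Share of the coding reads of the mitochondrial genome (percent, log axis) taken by each of the 13 coding genes, in order along the genome; points are libraries of both arms, coloured by stage, and black dashes are stage means (n = 8, 8, 7 and 7). ND1 steps down at the morula and again at the blastocyst, COX2 steps up, and ND3 is at 0.164% in blastocysts against 1.48% in morulae.

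All 10 called shares had the same sign of change in control means and in FLI means. The calls pooled both arms, which favours such agreement, so it is given as a description only. COX1, for one, went from 5.83% of coding reads in control morulae to 15.5% in control blastocysts, and from 10.8% to 17.0% in FLI embryos. Within 1 arm alone no share was called, and with groups of 3 or 4 libraries the smallest exact permutation p is too large to pass over 39 tests. Without the 3 libraries that stood apart before the morula, COX2 was called from 4-6 to 9-16 cells (3.65% ± 0.499 to 4.40% ± 0.361, exact permutation adjusted p = 0.0393). ATP8 was then called at both later steps (exact permutation adjusted p = 0.0436 and 0.0455) and CYTB at the last (0.0455). Without all 6 libraries that stood apart, COX2 was again called at the first step, and the same 4 genes from 9-16 cells to the morula. From morula to blastocyst 12 of 13 were then called, all except ATP8 (4 morulae and 7 blastocysts). The 4 morulae had 1.87% to 5.98% bta-mir-2887 and the 7 blastocysts 0.000249% to 1.11%, so stage and this feature cannot be told apart there. COX1, COX2 and COX3 gained share over that last step and the other 9 lost it, ND4L from 2.28% to 0.677% and COX3 from 21.8% to 35.0% (exact permutation adjusted p = 0.0253 and 0.0215).

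Next, FLI was set against control at each stage, which asks whether the cytokines changed mitochondrial transcripts. None of the 13 coding genes, the 2 rRNA genes or the tRNA genes passed limma's adjusted threshold at any stage. The background was also empty: limma called 0% of 13385, 14139, 13254 and 13029 genes at the 4 stages in turn, and at an unadjusted p under 0.05 it had 12, 293, 4203 and 2049 genes. Among the 13 coding genes, 1, 0, 7 and 3 had an unadjusted p under 0.05. Log2 fold changes of FLI against control were positive for 12 of 13 coding genes at 4-6 cells and for 1 at 9-16 cells, 1 at the morula and 0 at the blastocyst. Their medians were 0.21, -0.48, -1.02 and -1.25, against -0.01, 0.01, 0.08 and 0.04 over all genes tested. At 4-6 cells these values rest on single libraries: 7 of 13 were positive without FLI replicate 6 (median 0.09) or without control replicate 9 (0.06), 9 of 13 without control replicate 7 (0.13), and 13 of 13 without control replicate 6 (0.45). At 9-16 cells the median was -0.20 without control replicate 11 and -0.78 without control replicate 13. At the blastocyst it was -0.63 without control replicate 5, -1.90 without FLI replicate 8 and -1.89 without control replicate 7, and all 13 values were negative whichever library was left out.

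**Figure D4:**
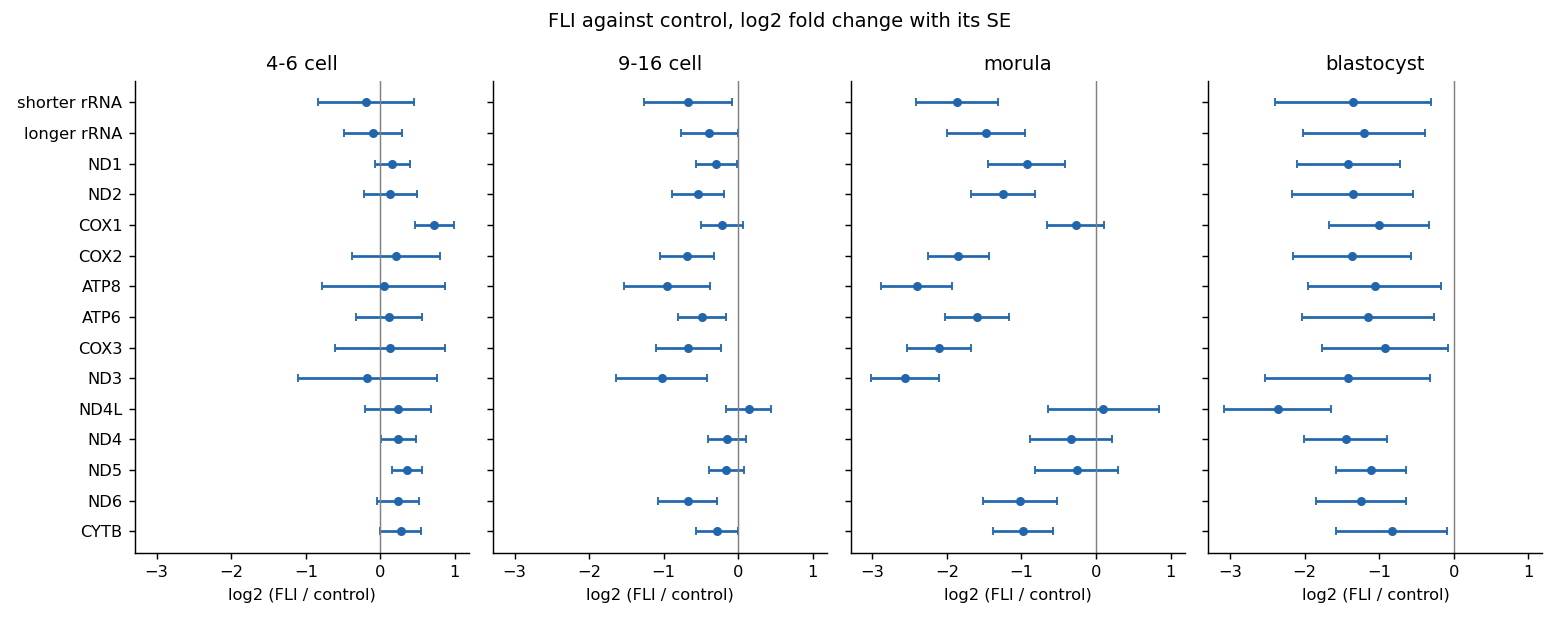
Log2 fold change of FLI against control with its SE for the 2 rRNA and 13 coding genes at each stage, from limma on log2(value + 1) (4 FLI libraries and 4 controls, or 3 controls at the morula and blastocyst). No gene passes the adjusted threshold; at the morula ND3 and ATP8 lie at -2.56 and -2.41 while ND4L lies at 0.10.

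The smallest p-values were those of the morula. The coding genes took 3.03%, 3.72% and 3.96% of reads in controls and 1.07%, 2.16%, 2.34% and 2.72% in FLI morulae. The groups did not overlap, and the difference of -1.50 percentage points had an exact permutation p of 0.0571 (two-sided, 0.229 adjusted over the 4 stages), where 0.0286 is the smallest the design allows. The rRNA share was 1.81% ± 0.480 in controls (n = 3) and 0.869% ± 0.394 in FLI morulae (n = 4), with an exact permutation p of 0.0286 that became 0.229 when adjusted over the 16 comparisons of its family.

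Individual genes differed unequally between the arms at the morula, and those with the largest log2 fold changes come first. Over both arms ND3 and ATP8 made up 1.48% and 0.870% of morula coding reads on average, and COX3 28.5%. ND3 had deposited values of 429.9, 1395 and 1500 in controls and 114, 155, 177 and 223 in FLI morulae. ATP8 had 253, 753 and 824 in controls and 62.5, 86.2, 107 and 180 in FLI morulae. Both separated without overlap, with log2 fold changes of -2.56 ± 0.46 and -2.41 ± 0.48 (limma adjusted p = 0.0630 each).

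COX3 had 9124, 21955 and 23678 in controls and 3311, 3494, 3744 and 5416 in FLI morulae (-2.10 ± 0.43, limma adjusted p = 0.0630). COX2 had 2506, 4546 and 6006 in controls and 745, 1047, 1448 and 1475 in FLI morulae (-1.85 ± 0.41, limma adjusted p = 0.0630). ATP6 had 4921, 10302 and 10969.9 in controls and 1622, 2878, 3395 and 3503 in FLI morulae (-1.59 ± 0.43, limma adjusted p = 0.0656). These 3 genes also separated without overlap. By contrast ND4L had 276, 314 and 323 in controls and 57.6, 453, 579 and 732 in FLI morulae, with a log2 fold change of 0.10 ± 0.75 (limma adjusted p = 0.932). ND4 (-0.34 ± 0.55), COX1 (-0.27 ± 0.38) and ND5 (-0.26 ± 0.56) were also close to 0 beside their errors.

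The rRNA genes followed the lower group. The shorter rRNA gene had 5772, 15733 and 20114 in control morulae and 1610.0, 3316, 4882 and 4910.0 in FLI morulae (-1.86 ± 0.55, limma adjusted p = 0.0745). The longer had 6751, 13025 and 13823 in controls and 1550.0, 4493, 5139 and 6041 in FLI morulae (-1.48 ± 0.52, limma adjusted p = 0.101). Among the tRNA genes, the 66-base gene on the minus strand at MT 15726 to 15791 had 152, 281 and 389 in controls and 4.997, 7.08, 26.6 and 78.3 in FLI morulae, again without overlap (-3.83 ± 0.79, limma adjusted p = 0.0630).

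Whether the morula genes passed depended on the tool and on 1 library. edgeR's quasi-likelihood test called 4 of 13 coding genes lower in FLI morulae, ND3, ATP8, COX2 and COX3, where it called 6.48% of all genes lower and 6.72% in either direction. DESeq2 called 6 of 13 lower, adding ATP6 and ND2, where it called 15.5% of all genes lower and 19.2% in either direction. Control replicate 7 lies nearest the FLI libraries. Without that library limma called 7 of 13 lower, where 20.9% of all genes were lower and 34.8% changed in either direction. The controls then left, replicates 1 and 3, had 0.0378% and 0.294% bta-mir-2887. FLI morulae had 2.69% to 5.98%, apart from replicate 7 with 0.00225%. Treatment and this feature can therefore hardly be told apart there. The authors' deposited table, in which positive values are higher in controls, gives ND3 a log2 fold change of 3.14 with an FDR of 0.000414, ATP8 2.18 with an FDR of 0.00721 and the tRNA gene at MT 15726 3.81 with an FDR of 0.00015. It gives COX2 1.60 with an FDR of 0.0871 and COX3 1.85 with an FDR of 0.104. Those values come from another test and may include the shallow control.

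Other features of the morula libraries moved with this difference. Control replicates 1 and 3 had little bta-mir-2887 and the highest level of short nuclear genes relative to long ones, 0.37 and 0.09 on the log2 scale, against -2.01 to -0.73 in the other morula libraries. Without control replicate 1 and FLI replicate 7, the morula libraries under 0.2% bta-mir-2887, no gene was called and the median log2 fold change of the 13 coding genes was -0.55. Without control replicate 3 as well, 1 control and 3 FLI morulae were left, no gene was called, the median was -0.27 and 10 of 13 values were negative. The coding share was then 3.03% in that control and 2.40% on average in FLI morulae (exact permutation p = 0.25, the smallest the design allows). Nuclear-encoded subunits of the respiratory chain took 6.44% ± 1.76 of reads in control morulae and 3.12% ± 0.758 in FLI morulae. Cytosolic ribosomal protein genes, used here only as a gauge of library composition, took 8.97% ± 2.08 and 4.94% ± 0.879. Sperm marker genes summed to between 24.9 and 111 in control morulae and between 6.09 and 28.6 in FLI morulae. The part of these features in the mitochondrial difference was not tested. Scaled to nuclear reads, the median log2 fold change over all genes moved from 0.08 to 0.46, and COX1, ND4, ND4L and ND5 had positive values while the other 9 coding genes stayed negative.

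In blastocysts FLI and control libraries overlapped in coding share but not in depth. FLI blastocysts held 111357660 to 169438740 reads and controls 62631346 to 107051368. The bta-mir-2887 gene took 0.000249%, 0.000349%, 0.00428% and 0.387% of reads in FLI blastocysts, the last in replicate 8. In blastocyst controls it took 0.232%, 0.599% and 1.11%. The part of depth and bta-mir-2887 in the differences below was not tested. The coding share was 1.13%, 2.64% and 5.80% in controls and 0.536%, 0.669%, 0.953% and 4.08% in FLI blastocysts, with an exact permutation p of 0.314 (0.419 adjusted). ND4L showed the largest log2 fold change, with deposited values of 179.9, 311 and 384 in controls and 21.0, 29.3, 44.4 and 284 in FLI blastocysts (-2.36 ± 0.72, limma adjusted p = 0.205). Replicate 8 alone brought the FLI range into that of the controls. ND4 had 1066, 2287 and 3111 in controls and 384, 491, 712 and 1978 in FLI blastocysts (-1.45 ± 0.56, limma adjusted p = 0.268). ND3 had 12.04, 27.8 and 344 in controls and 5.55, 10.9, 12.9 and 116 in FLI blastocysts (-1.42 ± 1.11, limma adjusted p = 0.556).

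ND1 (-1.41 ± 0.69) and COX2 (-1.37 ± 0.80) completed the largest values, with limma adjusted p of 0.345 and 0.427. The shorter and longer rRNA genes had -1.35 ± 1.05 and -1.201 ± 0.82. Without FLI replicate 8, limma called ND4L lower (-3.16 ± 0.37, adjusted p = 0.0315), the only coding gene to pass, where 2.97% of all genes were called. The FLI blastocysts then left had 0.000249% to 0.00428% bta-mir-2887, against 0.232% to 1.11% in controls, so this feature and treatment cannot be told apart there. In the authors' deposited table, which comes from another test and may include the shallow control, ND4L is 2.70 log2 units higher in controls with an FDR of 0.000205. ND4L and ND4 overlap and may lie on the same RNA. ND4L reads per ND4 read within a library were 0.1001, 0.168 and 0.169 in controls and 0.0548, 0.0597, 0.0624 and 0.144 in FLI blastocysts. At 4-6 cells that ratio was 0.0933 and 0.105 in the pair that stood apart and 0.171 to 0.215 in the other libraries.

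At 9-16 cells the largest values rested on 1 library. The coding share was 0.621%, 1.13%, 1.22% and 1.48% in controls and 0.746%, 0.796%, 0.844% and 0.884% in FLI embryos (exact permutation p = 0.143, 0.286 adjusted). ND3 had deposited values of 42.0, 91.8, 95.4 and 571 in controls and 45.5, 55.9, 66.2 and 70.8 in FLI embryos (-1.03 ± 0.61, limma adjusted p = 0.910). ATP8 had 24.4, 27.3, 59.6 and 218 in controls and 19.9, 22.2, 30.1 and 43.5 in FLI embryos (-0.96 ± 0.58, limma adjusted p = 0.910). The highest control value of both genes was that of replicate 11, and the groups overlapped.

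COX2, ND6 and COX3 had log2 fold changes of -0.68 ± 0.36, -0.68 ± 0.39 and -0.67 ± 0.44, and the rRNA genes had -0.67 ± 0.59 and -0.39 ± 0.38. Without replicate 11 the median log2 fold change of the 13 coding genes was -0.20 and all 13 were negative. The shorter rRNA gene stood at 11416 in that library and between 1192 and 2179 in the other 3 controls, against 1111 to 2066 in FLI embryos.

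At 4-6 cells the coding share was 0.359%, 0.425%, 0.540% and 0.820% in controls and 0.469%, 0.545%, 0.619% and 0.935% in FLI embryos (exact permutation p = 0.457, 0.457 adjusted). With same-numbered libraries assumed to be pairs, the share was higher in FLI in 4 of 4 pairs by 0.106 percentage points on average. The exact sign-flip permutation p was 0.125, the smallest that 4 pairs allow. COX1 had the largest log2 fold change (0.72 ± 0.26, limma adjusted p = 1.0), with deposited values of 398, 425, 556 and 721 in controls and 737, 754, 801 and 1134 in FLI embryos, which did not overlap. With the replicate block the smallest adjusted p among the 13 genes was 0.998. ND5 had 0.36 ± 0.20, CYTB 0.27 ± 0.27, ND4 0.24 ± 0.23 and ND4L 0.24 ± 0.44. The rRNA genes had -0.19 ± 0.65 and -0.10 ± 0.39.

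The ratio of rRNA reads to coding reads was 0.309, 0.317, 0.326 and 0.542 in 4-6 cell controls and 0.262, 0.267, 0.276 and 0.302 in FLI embryos. The groups did not overlap, with an exact permutation p of 0.0286 and an adjusted p of 0.229 over the 16 comparisons. At the later stages that ratio overlapped between arms, with means of 0.469 and 0.378 at 9-16 cells, 0.5004 and 0.402 at the morula and 0.311 and 0.262 at the blastocyst for control and FLI.

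The difference between FLI and control was compared across stages directly. A moderated F test of the interaction of FLI with stage in limma called 0 of 13 coding genes and 0% of all 13388 genes tested, where 1147 genes and 1 coding gene had an unadjusted p under 0.05. The smallest adjusted p among the coding genes was 0.575, and edgeR called no coding gene either. Without the 6 libraries that stood apart, limma called 0 of 13 coding genes and 259 of all 13325 genes tested. The stage steps given for each arm share libraries between neighbouring steps.

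ND3 and ND4L, which are neighbouring genes of similar length on the same strand, had a ratio that separated some libraries from the rest. This pair was chosen after the values were seen. ND3 reads per ND4L read were 5.45 and 7.46 in the pair of 4-6 cell libraries that stood apart and 0.212 to 0.536 in the other 6. At 9-16 cells the ratio was 6.90 in control replicate 11 and 0.281 to 0.481 in the other 7. At the morula it was 3.07, 4.45 and 5.44 in the 3 libraries low in bta-mir-2887, 1.33 in control replicate 7, and 0.196, 0.212 and 0.492 in the other FLI morulae.

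Across the 7 morula libraries the log2 ratio rose with the level of short nuclear genes relative to long ones. As a description, Pearson's r was 0.938 and Spearman's rho 0.929 (n = 7), with no test, since the pair was picked for how it separates these libraries. Without control replicates 1 and 3, the farthest from the median, r was 0.942 over 5 libraries. In blastocysts the ratio was 0.0669 to 1.11, with r = 0.635 and rho = 0.393 over 7 libraries, and r = 0.779 without FLI replicate 5 and control replicate 8. At 4-6 and 9-16 cells the libraries fell into separate clusters and no coefficient was computed.

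**Figure D5:**
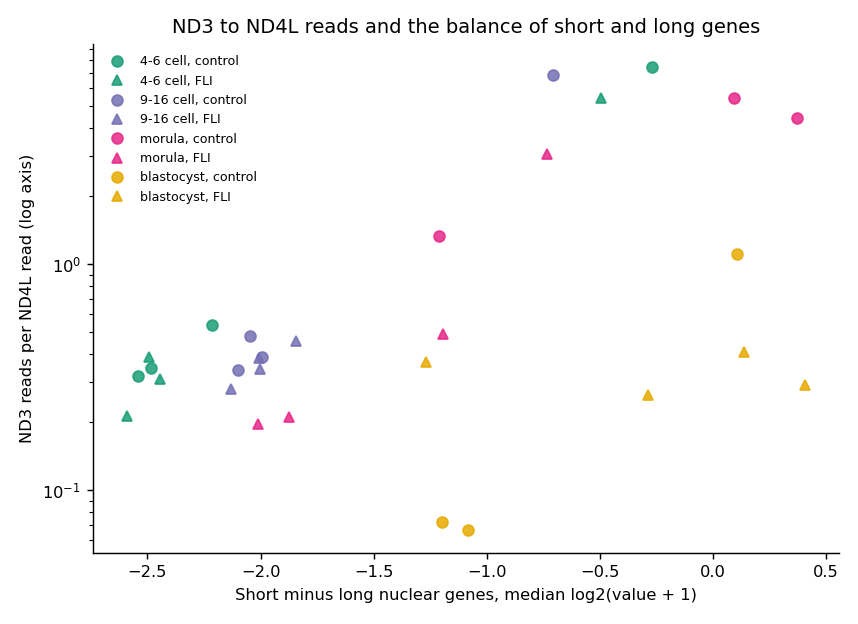
ND3 reads per ND4L read (log axis) against the median log2(value + 1) of nuclear genes under 1000 bases minus that of genes over 4000 bases, one point per library (circles control, triangles FLI, coloured by stage). Libraries before the blastocyst with more short-gene signal have ratios above 3, and blastocysts lie at or below 1.11.

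The relation of the total coding share to the same measure did not pass at either stage. At the morula r was 0.532 (exact permutation p = 0.218, 0.291 adjusted over the 4 relations computed, the ratio's included) and rho 0.5 (exact permutation p = 0.267, 0.528 adjusted), and r was -0.496 without control replicates 1 and 3, so the relation rests on those libraries. At the blastocyst r was 0.390 (exact permutation p = 0.391, 0.391 adjusted), rho 0.286 (exact permutation p = 0.556, 0.556 adjusted), and r 0.368 without the farthest pair.

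Reads at tRNA genes may come from longer RNAs that span them or from the opposite strand. The cDNA was made from poly(A) tails and the strand setting is not given, so these cannot be told apart from tRNA. Among the tRNA genes, that at MT 15726 to 15791 had the highest deposited values. Its deposited value was 1.23 to 69.9 (median 4.08) at 4-6 cells, 3.14 to 122 (median 4.67) at 9-16 cells, 4.997 to 389 (median 78.3) at the morula and 1.395 to 200.4 (median 6.26) at the blastocyst. Its highest values before the morula were 44.6 and 69.9 at 4-6 cells and 122 at 9-16 cells, in the libraries that stood apart. In controls it rose from 9-16 cells to the morula by a log2 fold change of 4.71 ± 1.27 (limma adjusted p = 0.0018) and fell to the blastocyst by -3.59 ± 1.36 (limma adjusted p = 0.0436). Without the 6 libraries that stood apart, which leaves 1 control morula, these log2 fold changes were 4.94 and -2.82.

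The minus-strand tRNA gene at MT 7229 to 7299, which shares 3 bases with COX1, reached at most 7.42 at the morula, rose over the same step in controls by 1.21 ± 0.53 (limma adjusted p = 0.0421) and fell to the blastocyst by -1.99 ± 0.57 (limma adjusted p = 0.00784). The gene at MT 4123 to 4194 ranged from 0 to 11.03 and that at MT 14441 to 14509 from 0 to 5.34 over the stages that list them. The other 6 listed tRNA genes never exceeded 1.75 in a library of any stage.

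Nuclear genes that serve the mitochondrial genome were followed as lists chosen with earlier results of these data known. Of 18 tested genes for mitochondrial DNA replication and transcription, 9 rose and 3 fell from 9-16 cells to the morula in controls, and 11 rose and 3 fell in FLI embryos. Of all genes tested, 39% rose and 34.6% fell over that step in controls and 40.6% and 32.6% in FLI embryos, so the number called in either direction was near the background of 73.6% and 73.3%. SSBP1, the single-stranded DNA-binding protein of mitochondria, rose by 3.86 ± 0.71 in controls (limma adjusted p = 2.37e-05) and 2.53 ± 0.65 in FLI embryos (limma adjusted p = 0.00116). TFAM, which packages mitochondrial DNA and starts its transcription, rose in controls by 2.47 ± 0.64 (limma adjusted p = 0.00113), and RNASEH1, which removes RNA primers, rose by 2.31 ± 0.36 (limma adjusted p = 2.45e-06). PRIMPOL, a primase and polymerase, fell by 3.25 in controls on the log2 scale (SE 0.23, limma adjusted p = 1.35e-12). POLG, the catalytic subunit of the mitochondrial DNA polymerase, rose in FLI embryos by 2.24 ± 0.53 (limma adjusted p = 0.000522).

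From morula to blastocyst 2 of the 18 fell in controls and 3 in FLI embryos, both below the background of 15.2% and 22% of all genes that fell. TFAM fell in controls by -2.24 ± 0.68 (limma adjusted p = 0.0123). TWNK, the replicative helicase, fell by -0.91 ± 0.31 in controls (limma adjusted p = 0.0264) and by -1.14 ± 0.27 in FLI embryos (limma adjusted p = 0.0014). The other falls in FLI embryos were POLRMT, the mitochondrial RNA polymerase (-2.68 ± 0.50, limma adjusted p = 0.000117), and LIG3, a DNA ligase (-0.66 ± 0.26, limma adjusted p = 0.0457). From 4-6 to 9-16 cells 3 of the 18 fell and 1 rose in controls, where 12.3% and 13.7% of all genes did, and 7 fell and 1 rose in FLI embryos, where 16% and 15.2% did. TFAM was the rise, by 3.57 ± 0.59 (limma adjusted p = 3.34e-05) and 3.61 ± 0.59 (limma adjusted p = 2.21e-05).

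Of 33 tested genes that process, stabilise or degrade mitochondrial RNA, 26 rose and 0 fell from 9-16 cells to the morula in controls. In FLI embryos 27 rose and 0 fell. Over that step 39% of all genes tested rose and 34.6% fell in controls, and 40.6% and 32.6% in FLI embryos. The list's median log2 fold change was 1.32 and 2.05. LRPPRC, which stabilises mitochondrial messages together with SLIRP, rose by 3.47 ± 0.33 in controls (limma adjusted p = 6.55e-10) and 4.10 ± 0.31 in FLI embryos (limma adjusted p = 4.32e-12). SLIRP rose by 5.79 ± 0.89 (limma adjusted p = 1.9e-06) and 4.02 ± 0.82 (limma adjusted p = 9.27e-05). HSD17B10 and TRMT10C, parts of the enzyme that cuts tRNAs out of mitochondrial precursors, rose in controls by 4.34 ± 0.49 (limma adjusted p = 1.33e-08) and 4.03 ± 0.75 (limma adjusted p = 2.98e-05). To the blastocyst 3 of the 33 fell and 0 rose in controls, where 15.2% of all genes fell and 17.6% rose. In FLI embryos 3 fell and 1 rose, where 22% and 18.8% of all genes did. GRSF1, which binds RNA in mitochondrial granules, fell by -0.88 ± 0.27 in controls (limma adjusted p = 0.0127) and -2.15 ± 0.23 in FLI embryos (limma adjusted p = 3.57e-08).

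The nuclear subunits of oxidative phosphorylation rose over the same step. From 9-16 cells to the morula 76 of 76 rose in controls and 74 of 76 in FLI embryos, where 39% and 40.6% of all genes tested rose. Their median log2 fold changes were 5.12 and 4.28, against 2.14 and 1.68 for the 13 mitochondrial coding genes. UQCR11, a small complex III subunit, rose by 8.31 ± 0.88 in controls (limma adjusted p = 3.84e-09), and CYC1, cytochrome c1, rose by 6.50 ± 0.24 in FLI embryos (limma adjusted p = 2.9e-18). Over the step before, 3 of the 76 rose and 8 fell in controls, where 13.7% of all genes rose and 12.3% fell. From morula to blastocyst 0 rose and 11 of 76 fell in controls, near the background of 15.2%, and 9 of 76 rose and 0 fell in FLI embryos, below the background of 18.8%. SDHC was among the 9 (1.33 ± 0.33, limma adjusted p = 0.00201). The test of the interaction of FLI with stage called none of the 76.

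Assembly and translation genes moved the same way at the morula. Over the step from 9-16 cells, 39% of all genes tested rose and 34.6% fell in controls, and 40.6% and 32.6% in FLI embryos. Of 24 tested assembly factors for cytochrome c oxidase and the ATP synthase, 22 rose in each arm, and of 18 for complexes I and III, 15 rose in each arm, with 1 fall in controls. NDUFAF3, a complex I assembly factor, rose by 6.07 ± 0.42 in controls (limma adjusted p = 9.63e-13) and COA6, a copper-handling factor for complex IV, by 6.67 ± 0.60 (limma adjusted p = 1.61e-10). Of 75 mitochondrial ribosomal proteins, 71 rose in controls and 67 in FLI embryos with no falls. Of 30 mitochondrial translation factors and tRNA synthetases, 20 rose and 2 fell in controls and 22 rose and 2 fell in FLI embryos, GFM1, an elongation factor, by 4.13 ± 0.24 (limma adjusted p = 2.06e-14) in controls.

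Regulators of biogenesis and of mitochondrial turnover were mixed. Of 13 biogenesis regulators, 7 rose and 4 fell at the morula in controls and 6 rose and 4 fell in FLI embryos, where 73.6% and 73.3% of all genes changed in either direction. PPARGC1A, the coactivator of mitochondrial biogenesis, fell by -5.38 ± 0.26 (limma adjusted p = 9.71e-16) in controls and -5.67 ± 0.24 (limma adjusted p = 4.25e-17) in FLI embryos, and ESRRB, a nuclear receptor, rose by 4.77 ± 0.40 (limma adjusted p = 3.97e-11) in controls. Of 16 mitophagy and dynamics genes, 9 rose and 3 fell in controls and 10 rose and 2 fell in FLI embryos, and the number called was again near that background. The mitophagy receptor FUNDC1 rose by 4.81 ± 0.43 in controls (limma adjusted p = 1.61e-10), and the fusion protein MFN2 fell by -2.97 ± 0.46 (limma adjusted p = 2.09e-06).

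Against FLI, none of the members of these nuclear lists was called at any stage. At the morula the median log2 fold change was -0.23 for replication and transcription genes, 0.24 for RNA processing genes, -1.80 for the nuclear subunits of oxidative phosphorylation and -1.18 for mitochondrial ribosomal proteins, against 0.08 over all genes tested. Named by the smallest p, TFAM had -1.90 ± 0.45 and SLIRP -2.58 ± 0.53 (limma adjusted p = 0.0630 each). In blastocysts the medians were 0.22, 0.33, 0.05 and 0.21 for the same lists, while all 13 mitochondrial coding genes had negative values.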

How the data were processed

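RNA from pools of 15 embryos was sequenced in 32 libraries. The authors deposited 1 table per stage, made with FastQC, HISAT2, featureCounts and edgeR on ARS-UCD1.2, per the submitters' processing notes; versions and the strand setting are not stated there. The deposited values are a scaled read signal: within each column, 100% were whole multiples of a single read (tolerance 0.001), so reads were recovered from them. The authors' deposited tables also hold log2 fold changes, coded control minus FLI, a likelihood ratio score, and p-values with FDR. Those tables have columns for the 2 shallow libraries, so their fold changes may rest on other libraries than the limma results. Levels are relative within a library.

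FLI was compared with control within each table by limma 3.58.1 (R 4.3.3; trend, robust) on log2(value + 1), over genes with a mean of at least 1, with Benjamini-Hochberg adjustment over all of them. The added 1 makes fold changes of low genes smaller than they are. Stage steps and the interaction used the 14225 genes common to the 4 tables, their recovered reads TMM-scaled jointly by edgeR 4.0.16, because tables were scaled separately. Shares were tested by two-sided exact permutation tests over libraries. edgeR's quasi-likelihood test, limma-voom, DESeq2 1.42.0, another pseudocount (0.5), no filter, nuclear scaling, a replicate block, all libraries and leaving out each library were alternatives. The scripts were tested on simulated data.

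The 4 libraries of an arm were replicates by label. Replicate numbers recur across arms. At 4-6 cells the deviations of same-numbered libraries from their arm means correlated at 0.924, 0.815, 0.473 and 0.689. The numbers were assumed to pair those libraries. Replicate 6 stood apart in both arms and entered both means, and differently numbered libraries were not compared. The correlations therefore cannot show that replicates 7, 8 and 9 are pairs. Up to 5 coding genes with the largest fold changes per comparison are named, with both rRNA genes, the tRNA genes by range, and up to 4 called genes per nuclear list, or 2 with the smallest p where none was called. Genes described as close to 0 and the ratio of ND3 to ND4L were chosen after their values were seen. Members, lists and tests were chosen with earlier results of these data known.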

Additional observations from a re-analysis of the deposited data

Results flagged for a closer look

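Of 72 groups of 4 libraries tested, 26 had a library far from the other 3, where chance gives about 1 in 20. These flags share libraries and are not independent. At 4-6 cells, control replicate 6 had an rRNA share of 0.444% (others 0.117% to 0.171%), an rRNA to coding read ratio of 0.542, an ND3 to ND4L ratio of 7.46, and deposited values of 3706 for the shorter rRNA gene, 1688 for the longer and 69.9 for the tRNA gene at MT 15726. FLI replicate 6 of that stage had an ND3 to ND4L ratio of 5.45 and values of 2125 for the shorter rRNA gene, 1134 for COX1 and 44.6 for the same tRNA gene.

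At 9-16 cells, control replicate 11 had an rRNA share of 1.31% (others 0.249% to 0.418%), an ND3 to ND4L ratio of 6.90, and values of 571 for ND3, 11416 for the shorter rRNA gene and 122 for the tRNA gene at MT 15726. FLI replicate 13 had 1959 for the longer rRNA gene, against 1219 to 1321. At the morula, FLI replicate 7 had an ND3 to ND4L ratio of 3.07, against 0.196 to 0.492.

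The morula and blastocyst controls, with 3 libraries each, could not enter this test. Blastocyst control replicate 5, for one, had a coding share of 5.80% against 1.13% and 2.64% in the other controls. Among FLI blastocysts every flagged library was replicate 8. Its coding share was 4.08% (others 0.536% to 0.953%) and its rRNA share 1.501%. Its values were 284 for ND4L, 929 for ND1, 116 for ND3, 7974 for COX2, 12338 and 7499.5 for the shorter and longer rRNA genes, and 41.5 for the tRNA gene at MT 15726. What sets these libraries apart was not tested.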

How the results depend on the processing

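Over 18 results and 485 alternatives, 449 were labelled the same, 36 moved and 0 reversed. Counts of called genes were compared in size only, within a set ratio, and 0 called against 0 called was labelled the same. Direction was compared only for the FLI minus control coding shares, so a count could not be labelled reversed. For single genes, 47 of 1460 lost and 34 gained a call. FLI against control at the morula gave 4 called coding genes with edgeR and 6 with DESeq2. The replicate block on all libraries gave 2 there, ND6 and ND3, where 0.128% of all genes were called. The block changed no other count of called coding genes. After the 4-6 cell stage the deviations of same-numbered libraries correlated at between -0.736 and 0.355.

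Among stage steps, adding the shallow libraries gave 0 for control 4-6 to 9-16 cells, 4 for control morula to blastocyst, and 0 and 0 for the 2 later FLI steps. Without libraries low in bta-mir-2887 before the morula, an alternative chosen after seeing the data, the control steps gave 1 and 3. Without all 6 libraries that stood apart, also chosen after seeing the data, the 2 later control steps gave 7 and 0, and shares of coding reads gave 1 and 12 at the first and last step. That alternative left out no blastocyst, whatever its share of bta-mir-2887. edgeR gave 0 for control morula to blastocyst, and nuclear scaling gave 9 for FLI. For shares of coding reads, control alone and FLI alone gave 0 at both later steps, by the size of the groups; all libraries gave 2 from 9-16 cells to the morula, and 1 was called from 4-6 to 9-16 cells without the libraries low in bta-mir-2887.

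Leaving out 1 library gave 0 to 7 called genes for FLI at the morula (7 without control replicate 7) and 0 to 1 at the blastocyst. Control steps ranged over 1 to 4, 10 to 12 and 1 to 6, and FLI steps over 0, 7 to 11 and 5 to 9. Shares of coding reads ranged over 0 to 1, 3 to 5 and 6 to 8 called genes. The FLI minus control coding share ranged from 0.00831 to 0.201, -0.459 to -0.173, -1.77 to -1.17 and -2.66 to -0.328 percentage points over the 4 stages. Other causes of these movements were not tested. With 3 or 4 libraries a group, a difference that was not called may still exist.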
